A study of Sus scrofa with 150 samples.

Results

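CYP7A1 is the liver enzyme that adds the 7-alpha hydroxyl group to cholesterol, the rate-limiting step of the classical route of bile acid synthesis. The 30 livers with the most CYP7A1 transcript and the 30 with the least were compared here, out of 150 pig livers in all. The groups were chosen by the array signal for CYP7A1 itself: the livers were ranked by the log2 value of the array's 1 probe set annotated to this gene (a probe set is a group of short probes that report 1 transcript). CYP7A1 is therefore described without a test, and every test concerns the other 23998 probe sets of the same arrays.

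All 150 pigs were commercial crossbreds labelled Pix(DLxDE), and the livers were taken at slaughter. The labels name no treatment, genotype or control, so all the groups used here share the same cross, tissue and sampling, and 1 array was hybridised per pig. They do not give sex, family, feeding, slaughter day or array batch. Liver identity was borne out by the hepatocyte markers: the summed linear signal of 10 of them, albumin and transthyretin among them, had a median of 115451 in the high and 113152 in the low CYP7A1 livers.

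Bile acids detergent dietary fat in the gut, and most of them return to the liver in the portal blood. Returning bile acids hold CYP7A1 down, through the receptor FXR and the repressor SHP in the liver and the hormone FGF19 from the intestine. In rodents and people CYP7A1 also follows feeding and the time of day, partly through the clock-controlled activator DBP. A cell that turns cholesterol into bile acids can make up the loss through its own cholesterol synthesis, which SREBP-2 drives.

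CYP7A1 was among the most variable transcripts of these livers. Its log2 level ran from 4.09 to 11.06 over the 150 livers, with a mean of 8.22 (SD 1.55, n = 150), and its SD ranked 24 among 23999 probe sets, whose median SD was 0.259. The high livers lay between 9.71 and 11.06 with a median of 10.06, and the low livers lay between 4.09 and 6.78 with a median of 6.13. The means differed by 4.31 on the log2 scale, a 19.9-fold difference, and 1 low liver lay at the lowest value of the table, which is an upper bound for it. There was no gap at either boundary: the next liver above the low group was at 6.82, and the next below the high group was at 9.70. The 90 livers between them had a mean of 8.38 (SD 0.729).

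**Figure D1:**
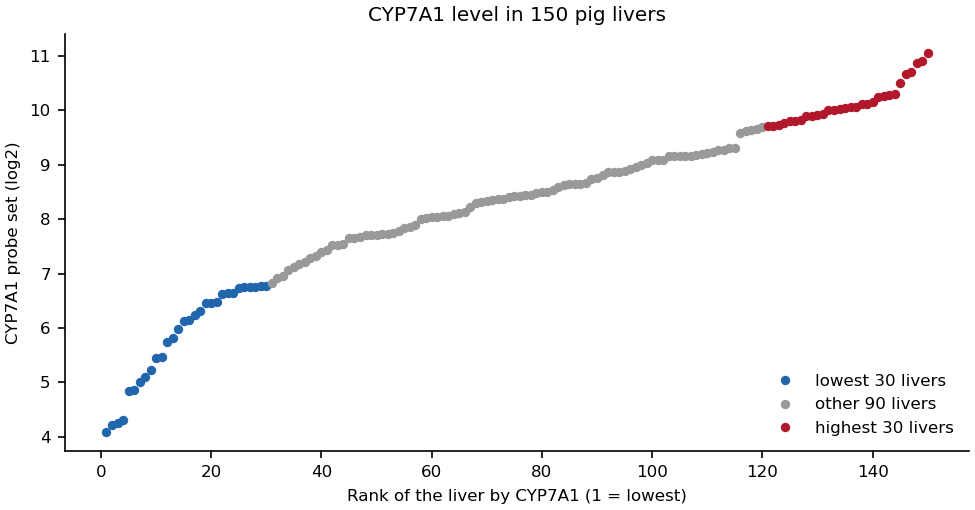
CYP7A1 log2 signal (vertical axis) of each of the 150 livers, ordered from lowest to highest (horizontal axis, rank), with 1 point per liver. The 30 lowest livers are blue, the 30 highest red and the other 90 grey; the levels form a continuous range from 4.09 to 11.06 with no break at 6.78 or at 9.71.

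In the high CYP7A1 livers 7 of 15 measured genes of cholesterol synthesis, 6 of 15 of fat synthesis and 4 of 9 of bile acid synthesis were higher. The lipid droplet protein PLIN2, the mitochondrial fatty acid gate CPT1A and 10 of 16 immediate early genes, which cells switch on within minutes of a stimulus, were lower. Of 23998 probe sets, 2744 (11.4%) were higher and 1221 (5.09%) lower in the high livers at a Benjamini-Hochberg adjusted p under 0.05, the call used throughout. Most differences were small, with a median size of 0.31 among the called probe sets. Only 14 called probe sets were at least 2-fold higher and 15 at least 2-fold lower. Counting each of 6764 named genes once, by its brightest probe set, 833 (12.3%) were higher and 511 (7.55%) lower, and the median difference of all of them was 0.001. The arrays of the high livers were slightly brighter, with a median over probe sets of 5.98 (SD 0.0614, n = 30) against 5.93 (SD 0.0614, n = 30; difference 0.048, SE 0.0159; permutation p = 0.00405, adjusted p = 0.0365 over 9 measures). With this array median as a covariate 2.48% of probe sets were higher and 2.22% lower, so 52.8% of the calls were higher instead of 69.2%, and 3.25% of genes were higher and 2.51% lower. Quantile normalization, which makes all arrays equally bright, gave 2285 higher and 1988 lower (53.5% higher). The part of array brightness in the results was not tested. Losses of a call with this covariate, and without the 13 arrays that stood apart by their low correlation with the rest, are given beside the genes below. Of these 13 arrays 2 were of high and 2 of low CYP7A1 livers, so leaving them out took 2 arrays from each group. Among them were the livers with the highest and the lowest CYP7A1 of all, at 11.06 and 4.09. In list counts a gene enters by its brightest probe set, and counts are to be read against the shares over all genes, 12.3% higher and 7.55% lower.

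Of the bile acid synthesis genes, 4 were higher in the high CYP7A1 livers, among 9 measured besides CYP7A1 itself, and 0 were lower, against 12.3% and 7.55% of all genes. All 4 act late in the pathway or beside it. The median difference of the 9 was 0.16. HSD17B4, the peroxisomal D-bifunctional protein that takes part in shortening the sterol side chain, lay at 10.76, 11.32 and 11.82 (lowest, median and highest log2 level) in the high livers and at 9.52, 10.94 and 11.50 in the low ones. The groups overlapped widely, but their means differed by 0.51 (SE 0.102, adjusted p = 0.000316), or 1.43-fold. AMACR, the racemase that prepares the side chain for that shortening, lay at 8.41, 9.61 and 11.01 in the high and at 7.76, 8.87 and 10.83 in the low livers. Its difference was 0.67 (SE 0.178, adjusted p = 0.00584). SCP2, whose gene encodes the peroxisomal thiolase SCPx that cleaves the side chain, was 1.41-fold higher (difference 0.50, SE 0.115, adjusted p = 0.00171). CYP39A1, the 7-alpha hydroxylase of 24-hydroxycholesterol, was 1.26-fold higher (difference 0.33, SE 0.0807, adjusted p = 0.00313). SCP2 and CYP39A1 lost the call with the array median as a covariate, at adjusted p = 0.101 and 0.0997.

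The other measured hydroxylases of bile acid synthesis, CYP8B1 and CYP27A1, were not called. CYP8B1, the 12-alpha hydroxylase that sets how much cholic acid is made, was weak on the array, at 5.12, 5.50 and 6.06 in the high and 5.05, 5.49 and 7.54 in the low livers. Its difference was -0.07 (SE 0.0965, adjusted p = 0.684). CYP27A1, which opens the alternative route of synthesis in mitochondria, was strong in both groups (medians 12.04 and 11.89) and differed by 0.11 (SE 0.06, adjusted p = 0.206). Among the peroxisomal genes ACOX2, the oxidase of branched side chains, differed by 0.16 (adjusted p = 0.102). ACOT8, a thioesterase, differed by -0.11 (adjusted p = 0.337), and ABCD3, which carries bile acid intermediates into the peroxisome, by -0.30 (SE 0.166, adjusted p = 0.218). With the array median as a covariate ABCD3 was called lower (adjusted p = 0.0343).

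Of 8 measured bile acid and sterol transporters, 3 were higher and 1 lower, against 12.3% and 7.55% of all genes, with a median difference of 0.09. ABCB11, the bile salt export pump of the canalicular membrane, lay at 7.03, 8.23 and 9.25 in the high and at 6.20, 7.29 and 8.75 in the low livers. It was 1.70-fold higher (difference 0.77, SE 0.158, adjusted p = 0.000491), and a second, dimmer probe set for it was also called, at 0.16. With the array median as a covariate the ABCB11 difference was 0.43 (adjusted p = 0.0309), and the dimmer probe set was not called (0.09, adjusted p = 0.317). SLC10A1, the sodium-dependent carrier NTCP that takes conjugated bile acids up from the blood, was near 12 in most livers of both groups, with medians of 12.51 and 12.21. The low group reached down to 10.06 where the lowest high liver stood at 12.09, and the means differed by 0.42 (SE 0.112, adjusted p = 0.00597). SLCO1A2, an organic anion carrier, was 0.41 higher (adjusted p = 0.0258), while ABCG8, a partner in the pump that exports cholesterol into bile, was lower by 0.30, at a difference of -0.30 (SE 0.102, adjusted p = 0.0351). SLCO1A2 and ABCG8 were not called with the array median as a covariate (adjusted p = 0.41 and 0.354), nor without the 13 arrays that stood apart (adjusted p = 0.0702 and 0.0579).

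Of 12 measured transcription factors and cofactors known to act on CYP7A1, 1 was higher and 0 were lower, which is near the 12.3% and 7.55% of all genes, and the median difference was 0.09. HNF4A, the nuclear receptor that activates many hepatocyte genes including CYP7A1, differed by 0.01 (adjusted p = 0.961), with means of 11.37 and 11.36. NR1H3, the oxysterol receptor LXR-alpha, differed by 0.01 (adjusted p = 0.936), and NR5A2, the activator LRH-1, by 0.17 (adjusted p = 0.346). PPARGC1A, the fasting-induced coactivator PGC-1-alpha, was 1.43-fold higher (difference 0.52, SE 0.158, adjusted p = 0.0176), but its adjusted p was 0.513 with the array median as a covariate. NR2F2, the orphan receptor COUP-TFII, was not called by its brightest probe set (0.27, adjusted p = 0.0737), while 1 of its other 3 was called higher (0.33, adjusted p = 0.0141, or 0.403 with the covariate). FXR, SHP and FGF19 were on the list of 24 genes from which these 12 come, but no values are given for them here.

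Cholesterol synthesis had the widest median difference of the sterol groups. Of its 15 measured members 7 were higher, 1 was lower and 7 were not called, against 12.3% and 7.55% of all genes, with a median difference of 0.41 against 0.001 over all 6764 genes. HMGCS1, the cytosolic HMG-CoA synthase at the head of the pathway, lay at 6.52, 8.78 and 10.29 in the high and at 5.70, 7.57 and 9.84 in the low livers. Its means differed by 1.13 (SE 0.241, adjusted p = 0.00077), or 2.18-fold. MSMO1, the methyl sterol oxidase of the late pathway, lay at 11.38, 11.94 and 12.76 in the high and at 9.37, 11.37 and 11.95 in the low livers. The median of the high livers nearly reached the top of the low group, with a difference of 0.79 (SE 0.114, adjusted p = 2.75e-06). Of the 30 livers with the most MSMO1 among all 150, 11 were high CYP7A1 livers and 0 were low ones, and of the 30 with the least MSMO1, 0 were high and 14 were low.

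The enzymes between HMGCS1 and cholesterol were mostly higher as well. SQLE, squalene epoxidase, differed by 0.75 (SE 0.154, adjusted p = 0.000494) and FDFT1, which makes squalene, by 0.67 (SE 0.151, adjusted p = 0.00147). SC5D, a desaturase of the last steps, differed by 0.69 (SE 0.121, adjusted p = 6.09e-05), and CYP51, the lanosterol demethylase, by 0.67 (SE 0.129, adjusted p = 0.000225). ACAT2, FDPS and TM7SF2, also of this pathway, differed by 0.41, 0.27 and 0.26 and were not called (adjusted p = 0.0615, 0.174 and 0.0634); a second probe set for ACAT2 was called, at 0.49. NSDHL differed by 0.12 and HSD17B7 by -0.04, with adjusted p of 0.54 and 0.884. SREBF2, which encodes SREBP-2, differed by 0.15 (adjusted p = 0.302), and SCAP, its escort protein, by -0.15 (adjusted p = 0.138).

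The INSIG proteins, which hold the SREBP precursors in the endoplasmic reticulum, went in opposite directions. INSIG1 was at 8.54, 10.44 and 11.39 in the high and at 9.17, 11.03 and 12.20 in the low livers, a difference of -0.61 (SE 0.169, adjusted p = 0.00939), and its second probe set was also lower, at -0.51. INSIG2 was at 6.68, 7.71 and 8.81 in the high and at 6.16, 7.38 and 8.20 in the low livers, a difference of 0.49 (SE 0.134, adjusted p = 0.00733). With the array median as a covariate 6 of the 7 higher genes of cholesterol synthesis were still called, INSIG2 being the one lost (adjusted p = 0.227), and INSIG1 was still lower (adjusted p = 0.0194).

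Of 15 measured genes of cholesterol uptake, storage and efflux, 1 was higher and 2 were lower, near the 12.3% and 7.55% of all genes, and the median difference was 0.06. NPC1, which moves cholesterol out of lysosomes, differed by 0.22 (adjusted p = 0.039). LCAT, which esterifies cholesterol in plasma, and PLTP, the phospholipid transfer protein, each differed by -0.24 (adjusted p = 0.0277 and 0.0387). None of the 3 kept the call with the array median as a covariate (adjusted p = 0.163, 0.0585 and 0.14), and without the arrays that stood apart LCAT and PLTP lost it (adjusted p = 0.105 and 0.0747). NPC2, which hands cholesterol to NPC1, disagreed between its probe sets: the brightest differed by 0.06 (adjusted p = 0.602), another by -0.35 (SE 0.0782, adjusted p = 0.00147, still called with the covariate at 0.0339), and the dimmest by 0.001.

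**Figure D2:**
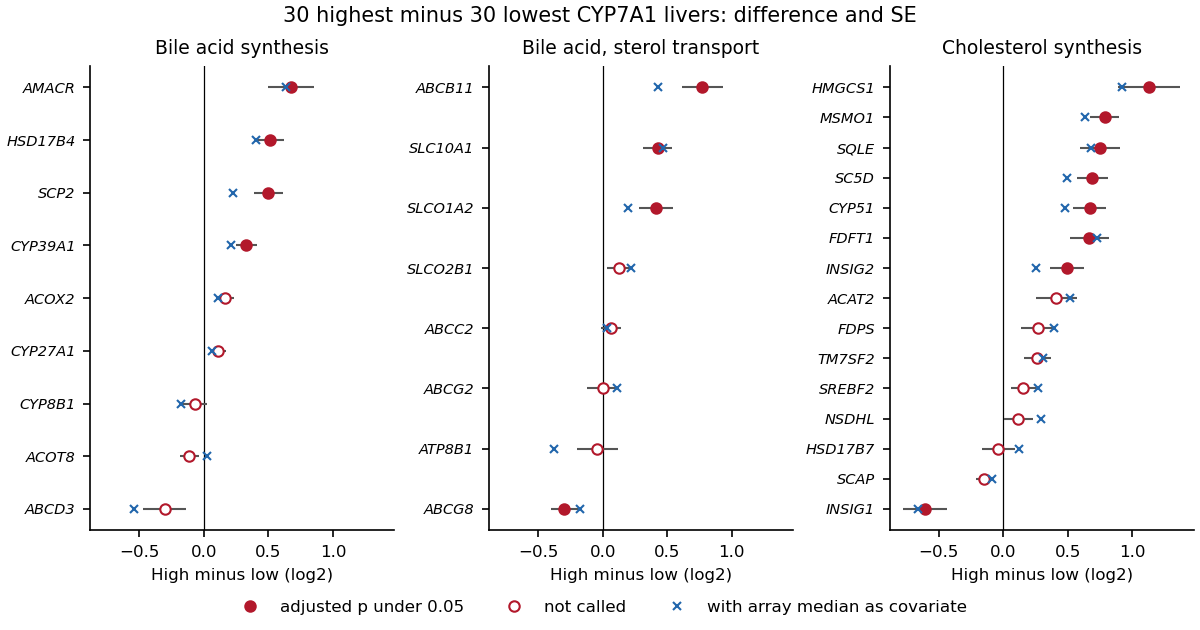
Difference between the 30 high and the 30 low CYP7A1 livers on the log2 scale (horizontal axis) for each measured gene of bile acid synthesis, of bile acid and sterol transport and of cholesterol synthesis. Filled red circles were called at an adjusted p under 0.05, open circles were not, bars show 1 SE and blue crosses show the difference with the array median as a covariate; HMGCS1 stands highest at 1.13 and INSIG1 lowest at -0.61.

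Of 15 measured genes of fatty acid and triglyceride synthesis 6 were higher and 0 lower, against 12.3% and 7.55% of all genes, with a median difference of 0.26. With the array median as a covariate 5 were called, DGAT2 being the one lost (adjusted p = 0.0806), and without the arrays that stood apart 4 were. SCD, the desaturase that makes oleic acid, lay at 10.72, 11.88 and 13.40 in the high and at 7.66, 11.23 and 12.45 in the low livers. The medians differed less than the lowest livers did, and the means differed by 1.18 (SE 0.249, adjusted p = 0.000696). FASN, fatty acid synthase, lay at 10.65, 11.71 and 12.78 in the high and at 8.29, 10.88 and 12.53 in the low livers. Its difference was 0.98 (SE 0.203, adjusted p = 0.000557), and 3 of its 4 probe sets were called higher. GPAM, which starts triglyceride assembly, differed by 0.51 (SE 0.0981, adjusted p = 0.00019). PNPLA3, a lipid droplet protein induced by feeding, differed by 0.76 (adjusted p = 0.0179) and DGAT2, which completes triglycerides, by 0.28 (adjusted p = 0.044). ACSS2, which activates acetate, differed by 0.62 (adjusted p = 0.0281). The calls lost without those arrays were ACSS2 and DGAT2 (adjusted p = 0.0761 and 0.0841). ACACA, acetyl-CoA carboxylase, and SREBF1, which encodes SREBP-1, differed by -0.08 and 0.02 (adjusted p = 0.375 and 0.886).

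Genes of fatty acid oxidation and fasting split, with 3 higher and 6 lower among 20 measured, against 12.3% and 7.55% of all genes, and a median difference of -0.03. PLIN2, the coat protein of lipid droplets, lay at 6.27, 6.88 and 7.99 in the high and at 6.84, 8.77 and 11.75 in the low livers. Only the lower end of the low group overlapped with the high group, and PLIN2 fell by 1.92 on the log2 scale (SE 0.213, adjusted p = 6.86e-09), or 3.78-fold. Of the 30 livers with the most PLIN2, 18 were low CYP7A1 livers and 0 were high ones. CPT1A, which admits long-chain fatty acids to mitochondria, lay at 8.44, 9.59 and 10.62 in the high and at 7.73, 10.64 and 11.86 in the low livers. The lowest value of all belonged to a low liver, yet CPT1A fell by 0.96 on average (SE 0.175, adjusted p = 0.000104). ACADVL, the first dehydrogenase for long chains, differed by -0.40 (adjusted p = 0.00131), SLC25A20, the carnitine carrier, by -0.34 (adjusted p = 0.0127), and ANGPTL4, a fasting-induced inhibitor of lipoprotein lipase, by -0.37 (adjusted p = 0.0402). HADHA, of the trifunctional protein, differed by -0.22 (adjusted p = 0.0454).

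The higher genes of that list included FABP1, the main fatty acid binding protein of hepatocytes. FABP1 was at 12.12, 12.88 and 13.32 in the high and at 11.13, 12.29 and 13.05 in the low livers, 1.49-fold higher (difference 0.58, SE 0.0878, adjusted p = 6.00e-06). ACADM and ACADL, dehydrogenases for medium and long chains, differed by 0.52 and 0.48 (adjusted p = 0.0107 and 0.00533). ACADM and ACADL lost the call with the array median as a covariate (adjusted p = 0.44 and 0.241), and among the lower genes SLC25A20, ANGPTL4 and HADHA did so (adjusted p = 0.0662, 0.0994 and 0.095). HADHA was also not called without the arrays that stood apart (adjusted p = 0.088). PPARA, the receptor that drives many of these genes, was not called.

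Glucose metabolism had 2 higher and 4 lower genes among 10, against 12.3% and 7.55% of all genes, and 1 higher and 2 lower with the array median as a covariate. PC, pyruvate carboxylase, was lower, at 8.73, 9.76 and 10.43 in the high and 9.37, 10.40 and 11.66 in the low livers (difference -0.69, SE 0.12, adjusted p = 5.19e-05). PCK1, the cytosolic enzyme that commits oxaloacetate to glucose synthesis, differed by -0.41 (SE 0.115, adjusted p = 0.00987). PYGL, liver glycogen phosphorylase, and SLC2A2, the glucose carrier GLUT2, were higher, by 0.29 and 0.35 (adjusted p = 0.00286 and 0.00909). FBP1, fructose bisphosphatase, and PFKL, phosphofructokinase, differed by -0.21 and -0.22 (adjusted p = 0.0436 and 0.0419). The calls lost with the covariate were SLC2A2, FBP1 and PFKL (adjusted p = 0.142, 0.0911 and 0.148), and PFKL was also lost without the arrays that stood apart (adjusted p = 0.174).

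The circadian clock list was split too, with 1 gene higher, 2 lower and 6 not called among 9 measured, against 12.3% and 7.55% of all genes, and a median difference of -0.05. DBP, the clock-controlled activator of CYP7A1, lay at 6.92, 8.12 and 9.08 in the high and at 6.06, 7.55 and 8.51 in the low livers. The groups overlapped over most of their range, and the difference was 0.64 (SE 0.146, adjusted p = 0.00162), or 1.55-fold. Of the 30 livers with the most DBP, 8 were high and 1 was a low CYP7A1 liver, and of the 30 with the least, 2 were high and 12 were low. NFIL3, a repressor that binds the same DNA elements as DBP, lay at 7.86, 8.54 and 9.18 in the high and at 7.75, 9.07 and 10.02 in the low livers, a difference of -0.43 (SE 0.114, adjusted p = 0.006). PER1, a repressor of the core clock loop, differed by -0.28 (SE 0.0889, adjusted p = 0.0207), its second probe set was at -0.08 and not called, and the call was lost with the array median as a covariate (adjusted p = 0.132).

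The other 6 measured clock genes were not called. ARNTL, the BMAL1 activator, differed by -0.13 (SE 0.132, adjusted p = 0.57), and CRY2, a repressor, by 0.04 (adjusted p = 0.815). RORA, which activates ARNTL, differed by 0.37 (SE 0.164, adjusted p = 0.117). BHLHE40, USP2 and CSNK1D differed by -0.13, 0.23 and -0.05 (adjusted p = 0.177, 0.174 and 0.486). With the DBP level of each liver as a covariate 2333 probe sets were higher and 864 lower with CYP7A1.

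**Figure D3:**
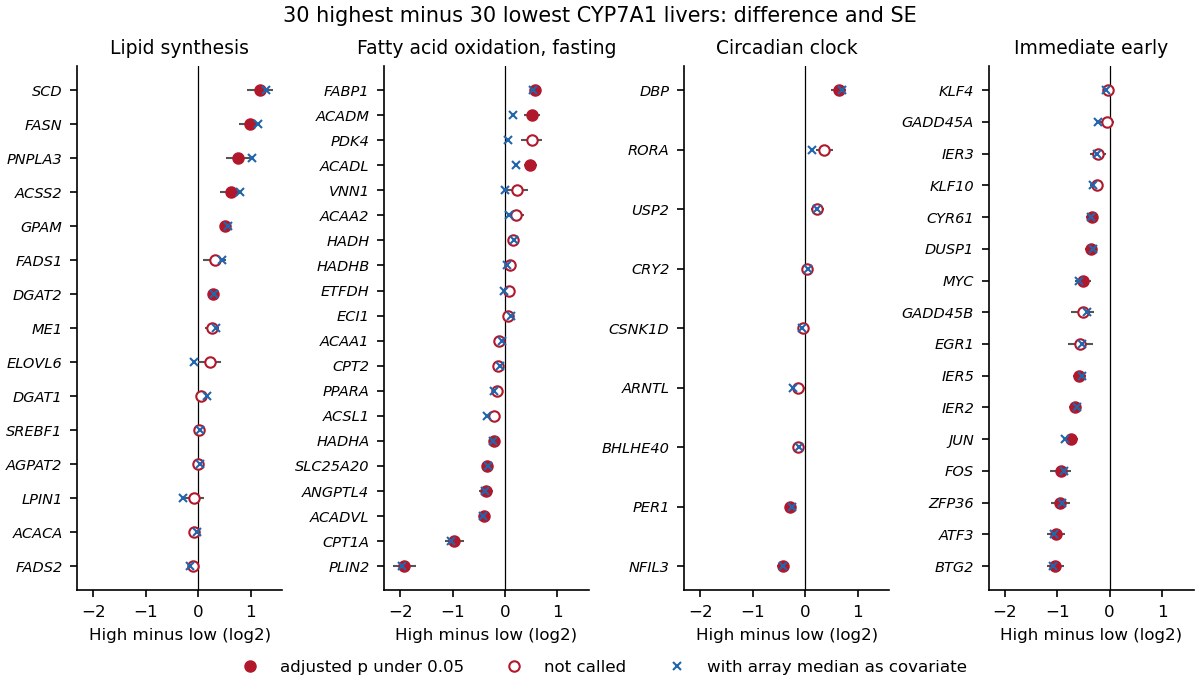
Difference between the 30 high and the 30 low CYP7A1 livers on the log2 scale (horizontal axis) for each measured gene of fatty acid and triglyceride synthesis, of fatty acid oxidation and fasting, of the circadian clock and of the immediate early genes. Symbols are filled red for an adjusted p under 0.05 and open otherwise, bars show 1 SE and blue crosses the difference with the array median as a covariate; PLIN2 at -1.92 is the lowest, and DBP at 0.64 is the highest of the clock genes.

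Immediate early genes had the largest share of lower genes among the lists. Of 16 measured, 10 were lower and 0 higher, against 7.55% of all genes lower, and all 16 had a negative difference, with a median of -0.53. BTG2, an antiproliferative gene, lay at 8.10, 8.95 and 9.73 in the high and at 8.64, 9.95 and 11.65 in the low livers. The median of the low livers was above the highest high liver, and the difference was -1.03 (SE 0.153, adjusted p = 4.26e-06). ATF3, a stress-induced transcription factor, lay at 5.33, 5.99 and 6.70 in the high and at 5.39, 7.0 and 9.54 in the low livers, a difference of -1.02 (SE 0.174, adjusted p = 3.63e-05). JUN and FOS, which form the factor AP-1, differed by -0.74 (SE 0.14, adjusted p = 0.000175) and -0.93 (SE 0.199, adjusted p = 0.000803). ZFP36, which speeds the decay of inflammatory messages, differed by -0.94 (SE 0.179, adjusted p = 0.000186) and IER2 by -0.66 (SE 0.109, adjusted p = 2.56e-05). With the array median as a covariate 8 of the 16 were called lower, and 8 also without the 13 arrays that stood apart.

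**Figure D4:**
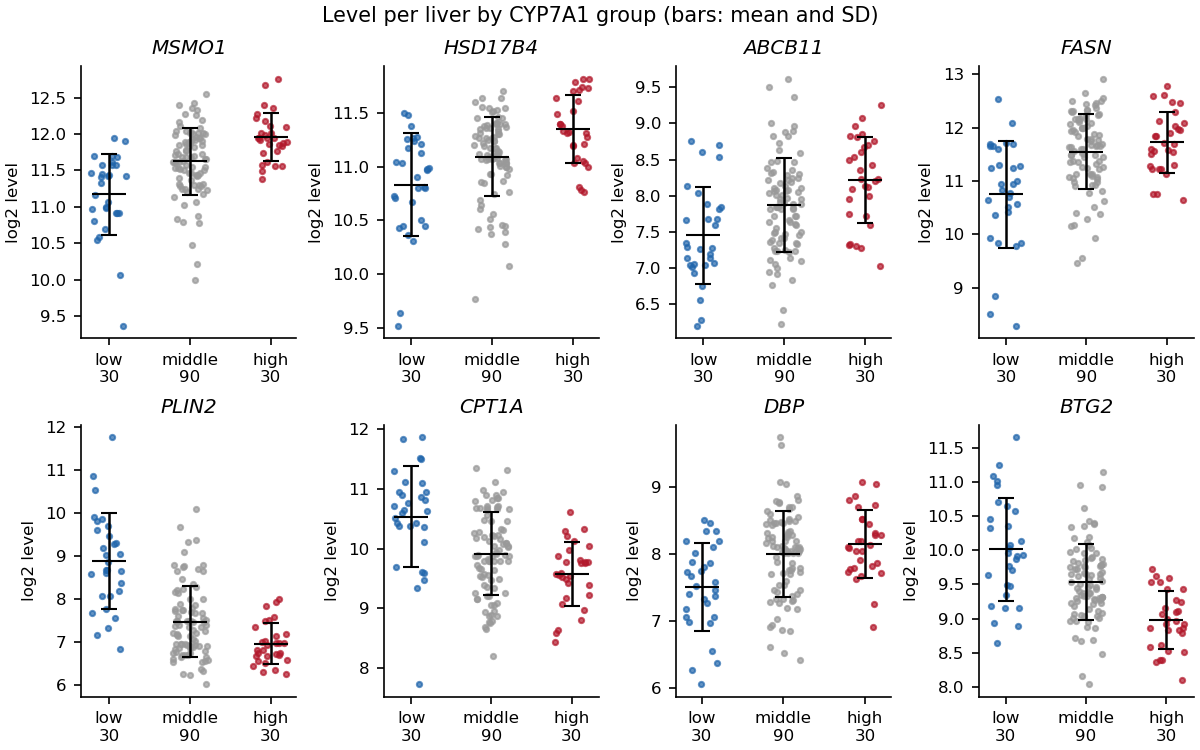
Log2 level (vertical axis) in each liver of MSMO1, HSD17B4, ABCB11, FASN, PLIN2, CPT1A, DBP and BTG2, for the 30 low, 90 middle and 30 high CYP7A1 livers, with 1 point per liver and horizontal bars for the mean and SD. MSMO1, FASN and DBP have their lowest levels among the low or middle livers, and PLIN2 is above 8 in no high liver.

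Of 21 genes of the amino acid response and of endoplasmic reticulum stress 7 were lower and 2 higher, against 7.55% and 12.3% of all genes, and 2 were lower and 1 higher with the array median as a covariate. XBP1, which drives the unfolded protein response, differed by -0.42 (SE 0.0744, adjusted p = 8.12e-05), and ATF4, the factor of the integrated stress response, by -0.36 (SE 0.0818, adjusted p = 0.00131). MANF and HYOU1, chaperones of the endoplasmic reticulum, differed by -0.54 and -0.56 (adjusted p = 0.00272 and 0.00371). With the covariate XBP1 and ATF4 were still called lower (adjusted p = 0.00217 and 0.0283), while MANF and HYOU1 were not (adjusted p = 0.0871 and 0.0583), nor were DDIT3, SDF2L1, CRELD2 and the higher PSAT1 (adjusted p = 0.0524, 0.283, 0.101 and 0.0564). SDF2L1 was also not called without the arrays that stood apart (adjusted p = 0.11). Of 14 heat shock genes 3 were lower and 1 higher, against 7.55% and 12.3% of all genes. With the covariate 2 were lower and 0 higher, against 2.51% and 3.25% of all genes. DNAJB1, a partner of HSP70, lay at 7.69, 8.59 and 9.20 in the high and at 8.70, 9.30 and 12.97 in the low livers (difference -0.92, SE 0.155, adjusted p = 3.22e-05). BAG3 differed by -0.73 (SE 0.164, adjusted p = 0.00132).

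Of 20 xenobiotic metabolism genes, which handle drugs and foreign compounds, 5 were higher and 0 lower, against 12.3% and 7.55% of all genes, among them CYP3A39 at 0.38 (adjusted p = 0.00228), FMO1 at 0.45 (adjusted p = 0.00531) and GSTA1 at 0.15 (adjusted p = 0.0154). With the array median as a covariate 2 were called, CYP3A39 and GSTA1, while FMO1, CYP3A46 and FMO5 were not (adjusted p = 0.0819, 0.14 and 0.266). GSTA1 was not called without the arrays that stood apart (adjusted p = 0.0508). Another GSTA1 probe set differed by 0.26 (adjusted p = 0.00065) and kept the call with the covariate and without those arrays (adjusted p = 0.00194 and 0.00286). The dimmest GSTA1 probe set was not called (0.95, SE 0.612, adjusted p = 0.313). OTC, of the urea cycle, was the 1 called gene among 17 of amino acid breakdown and the urea cycle, at 0.60 (SE 0.115, adjusted p = 0.000221). GHR, the growth hormone receptor, was the 1 called among 9 genes of its axis, at 0.66 (SE 0.168, adjusted p = 0.00441), but its adjusted p was 0.194 with the array median as a covariate. Among 16 interferon response genes ISG20 was called lower, at -0.71 (adjusted p = 0.0254, or 0.0949 with the covariate). These single calls were near or under the shares over all genes. OTC and GHR made 5.88% and 11.1% of their lists higher, against 12.3%, and ISG20 made 6.25% of its list lower, against 7.55%. By the brightest probe set of each of 16 acute phase genes, CRP and ITIH4 were called lower, at -0.55 and -0.26 (adjusted p = 0.0496 and 0.026). They made 12.5% of the list, against 7.55% of all genes lower. Neither was called with the array median as a covariate or without the 13 arrays that stood apart. SAA2, a serum amyloid A, disagreed between its probe sets, the brightest at -0.04 (adjusted p = 0.762) and the other at -0.59 (SE 0.164, adjusted p = 0.00917), which was still called with the covariate (adjusted p = 0.0336) and without those arrays (adjusted p = 0.012).

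Outside these groups the widest differences lay in genes of varied function. CA3, a carbonic anhydrase abundant in muscle and liver, lay at 6.61, 9.23 and 11.21 in the high and at 4.24, 7.60 and 9.90 in the low livers. It was 2.98-fold higher (difference 1.57, SE 0.304, adjusted p = 0.00022), the largest difference among the higher named genes, and its second probe set also differed by 1.57. LRRN3, a leucine-rich repeat membrane protein, and NREP, a small protein first found in neurons, differed by 1.43 (SE 0.241) and 1.27 (SE 0.185), with adjusted p of 3.27e-05 and 3.10e-06. CITED2, a coactivator of HNF4-alpha and other factors, had a smaller difference with less spread: it lay at 8.48, 9.09 and 9.63 in the high and at 7.40, 8.25 and 9.09 in the low livers. The median of the high livers was thus within 0.01 of the highest low liver, and the difference was 0.88 (SE 0.0959, adjusted p = 6.86e-09). MEIS1, a homeobox factor, was much alike, at 0.89 (SE 0.101, adjusted p = 1.11e-08). UOX, which degrades uric acid in pigs, differed by 0.88 (SE 0.16, adjusted p = 0.000104), and SULT1E1, the estrogen sulfotransferase, by 0.86 (SE 0.169, adjusted p = 0.000251), or by 0.51 with the array median as a covariate (adjusted p = 0.0162).

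MFSD2A, which carries lysophospholipids with long-chain fatty acids into cells, had the widest difference of all called probe sets. It lay at 5.20, 7.60 and 9.58 in the high and at 6.60, 9.71 and 11.49 in the low livers, so that the median of the low livers was above the highest high liver. MFSD2A was 4.93-fold lower in the high livers (difference -2.30, SE 0.284, adjusted p = 1.05e-07). APOA4, an apolipoprotein of triglyceride-rich particles, differed by -1.26 (SE 0.305, adjusted p = 0.00286). PMM1, a phosphomannomutase, and SLC25A30, a mitochondrial carrier, differed by -1.24 and -1.14 (SE 0.198 and 0.197, adjusted p = 1.55e-05 and 4.71e-05). ZFAND2A, a stress-induced zinc finger gene, differed by -1.03 (SE 0.335, adjusted p = 0.025) and was not called with the array median as a covariate (adjusted p = 0.247).

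Markers of other cell types were compared in the same way. Their counts are to be read against 12.3% of all genes higher and 7.55% lower. In whole tissue, fewer cells of a type and less RNA per cell cannot be told apart. None of the 10 hepatocyte markers was called. Of 10 bile duct markers CLDN4, a tight junction protein, was lower, at 7.93, 8.68 and 9.24 in the high and at 8.66, 9.40 and 10.55 in the low livers (difference -0.74, SE 0.11, adjusted p = 4.65e-06), while ANXA4 was higher by 0.36 (adjusted p = 0.00235), or by 0.19 and not called with the array median as a covariate (adjusted p = 0.121). The dimmer probe set of ANXA4 differed by 0.39 (adjusted p = 0.00142) and was still called with the covariate (0.28, adjusted p = 0.0475). KRT19, EPCAM and SOX9, which define these cells, differed by -0.02, 0.10 and -0.04 (adjusted p = 0.923, 0.447 and 0.792). The summed linear signal of the 10 bile duct markers ran from 2567 to 4926 in the high and from 2281 to 9089 in the low livers, with medians of 3423 and 3587. Of 10 macrophage markers MRC1 was higher and C1QC and CD14 were lower, at 0.47, -0.23 and -0.21 (adjusted p = 0.0063, 0.0288 and 0.0291), and none was called with the array median as a covariate (adjusted p = 0.281, 0.397 and 0.221), C1QC being lost without the arrays that stood apart as well (adjusted p = 0.102). Their summed signal ran from 10747 to 16452 in the high and from 11446 to 18042 in the low livers, with medians of 13488 and 14194. Of 8 endothelial markers TEK was higher, at 0.31 (adjusted p = 0.00935, or 0.167 with the array median). HBB, a hemoglobin chain and 1 of 3 red blood cell markers, was higher by 0.46 (adjusted p = 0.00681, or 0.33 with the covariate), and MYL1, 1 of 8 skeletal muscle markers, differed by -0.16 (adjusted p = 0.0281, or 0.119 with the covariate and 0.0609 without those arrays). The summed signal of 5 pancreas markers was the most uneven, with medians of 2913 in the high and 2293 in the low livers. The ranges were 787 to 5795 and 964 to 5295, and none of the 5 was called by its brightest probe set. The median difference of the 5 was -0.02, and the widest was that of AMY2, an amylase, at 0.44 (adjusted p = 0.0967). With the covariate AMY2 differed by -0.004 (adjusted p = 0.993). The dimmest AMY2 probe set was called higher, at 0.27 (adjusted p = 0.0158, or 0.414 with the covariate). By brightest probe sets no call was made among 12 stellate cell and fibroblast markers, 9 of T and NK cells, 5 of neutrophils or 5 of adipocytes (limma on 60 arrays). Dimmer probe sets of PRF1 and CD4, of T and NK cells, were called lower at -0.11 and -0.14 (adjusted p = 0.00944 and 0.026), but not with the covariate (adjusted p = 0.058 and 0.1). No marker of these lists lay at the lowest value of the table in all 60 livers. Their part in the results was not tested.

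Markers of position along the liver lobule gave few calls. Among markers of pericentral cells, which lie around the central vein, 1 gene was called, and the calls among periportal markers went both ways. GLUL, glutamine synthetase, a pericentral gene, was higher in 2 of its 3 probe sets, at 0.42 and 0.84 (adjusted p = 0.0178 and 0.00228), the other being at -0.06. The other 5 measured pericentral markers were not called, CYP2E1 among them at 0.01 (adjusted p = 0.894). Of 7 periportal markers CDH1 was higher, at 0.34 (adjusted p = 0.00118), and PCK1 lower, as above. Over all genes 12.3% were higher and 7.55% lower.

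The 90 livers between the groups took no part in the comparison and held a narrower range of CYP7A1, from 6.82 to 9.70. Here the slope of each probe set on CYP7A1, per log2 unit, was called positive in 0 probe sets (0%) and negative in 8 (0.0333%), with 2978 at an unadjusted p under 0.05. Of the probe sets called between the groups, 3607 (90.97%) had a slope of the same sign in these livers. The share with the same sign over all probe sets was not computed, and the part of array brightness in this share was not tested. Only 3 (0.0757%) were called in both, all of them lower with more CYP7A1. Among the cholesterol synthesis genes 11 of 15 had a positive slope, MSMO1 at 0.24 (SE 0.06, adjusted p = 0.127), SC5D at 0.25 (SE 0.07, adjusted p = 0.135) and SQLE at 0.28 (SE 0.08, adjusted p = 0.159). The slope of ABCB11 was 0.31 (SE 0.09, adjusted p = 0.153) and that of HSD17B4 0.12 (SE 0.05, adjusted p = 0.303). For DBP the slope was -0.04 (SE 0.09, adjusted p = 0.867), for NFIL3 it was 0.05 (SE 0.09, adjusted p = 0.827), and for BTG2 it was -0.06 (SE 0.08, adjusted p = 0.772). DBP and NFIL3 thus had the other sign in these livers, with slopes smaller than their errors. Over the 6764 named genes 3294 had a positive slope.

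The difference could also be divided into a step from low to middle and a step from middle to high livers, in a fit of all 3 groups that was added after the data had been seen. CYP7A1 itself stepped by 2.54 and then by 1.77. From low to middle 1.15% of probe sets were higher and 0.717% lower, and from middle to high 1.03% and 0.454%. Fat synthesis and PLIN2 differed mainly in the first step: FASN differed by 0.80 and then by 0.17, SCD by 0.96 and then 0.22, and PLIN2 by -1.41 and then -0.51. DBP differed by 0.49 and then 0.14, and NFIL3 by -0.45 and then 0.02. In MSMO1 the steps were 0.45 and 0.33, in HSD17B4 0.26 and 0.25, and in BTG2 -0.47 and -0.56. PER1 showed its difference in the second step, with 0.01 and then -0.29. These contrasts between steps were not established: per log2 unit of CYP7A1 no probe set had steps that differed (0 called of 23998, 0%, limma; 1136 at an unadjusted p under 0.05), and the adjusted p was 0.933 for FASN, SCD, PLIN2, DBP, NFIL3 and PER1.

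The genes whose levels followed CYP7A1 most closely within the 90 middle livers were chosen for that likeness and are given without a test of it. C8A, a complement component made by hepatocytes, had the highest Pearson correlation, r = 0.427 (Spearman rho = 0.452; r = 0.407 without the 2 livers farthest from the median CYP7A1). It was also higher in the high livers, by 0.25 (adjusted p = 0.00702), although not with the array median as a covariate (adjusted p = 0.237). MC2R, MBP, HIVEP2 and RNF13 followed, with r of 0.406, 0.406, 0.406 and 0.398. AGPAT3, which acylates lysophosphatidic acid, had the most negative correlation, r = -0.481 (rho = -0.471; r = -0.454 without 2 livers). AGPAT3 was 1 of the 3 probe sets called both in the middle livers (slope -0.22, SE 0.0432) and between the groups. The slope call comes from the same 90 livers in which AGPAT3 was chosen, so it is no separate test of the likeness. No negative slope was called in these livers without the arrays that stood apart or with title blocks. The same held with the 3 prime minus 5 prime differences as covariates. Between the groups AGPAT3 lay at 7.95, 8.39 and 9.43 in the high and at 8.20, 8.88 and 9.97 in the low livers (difference -0.48, SE 0.0999, adjusted p = 0.000577). Its other probe set differed by -0.74 and was also called; the remaining 2 of the 3 had no gene symbol. PPIA, JPT1, MRPL43 and PFKP followed at r of -0.458, -0.449, -0.432 and -0.429, and none of them was called between the high and low livers (adjusted p = 0.921, 0.12, 0.547 and 0.378).

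Pigs with high CYP7A1 livers had a somewhat larger back fat area, but the difference did not pass the correction. Fat area, measured over the back muscle, ran from 10 to 26.7 cm2 with a mean of 15.8 (SD 3.76, n = 30) in the high group and from 8.1 to 18.9 cm2 with a mean of 13.6 (SD 2.75, n = 30) in the low group. The difference was 2.16 cm2 (SE 0.85; permutation p = 0.0131, adjusted p = 0.059 over 9 measures). The middle group had a mean of 15.6 cm2 (SD 3.08, n = 90), close to that of the high group. Drip loss, the share of its weight that a muscle sample loses on hanging, was 4.91% (SD 1.77, n = 30) in the high and 5.24% (SD 2.21, n = 30) in the low group, a difference of -0.327 points (SE 0.516; permutation p = 0.529). The 3 prime minus 5 prime difference in the array's actin controls, which is larger in degraded RNA, was 2.88 in the high and 2.82 in the low group (permutation p = 0.521), and that of GAPDH was 0.965 and 0.922 (permutation p = 0.426). EIF1AY, a Y-linked gene, was above 5 in 12 of the 30 high and 12 of the 30 low livers, but in 53 of the 90 middle livers. The part of this unevenness in the steps to and from the middle group was not tested. The high and the low group each held 2 of the 13 arrays that stood apart. Each of these 2 groups had livers from 9 of the 10 blocks of title numbers, whose meaning the labels do not give.

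**Figure D5:**
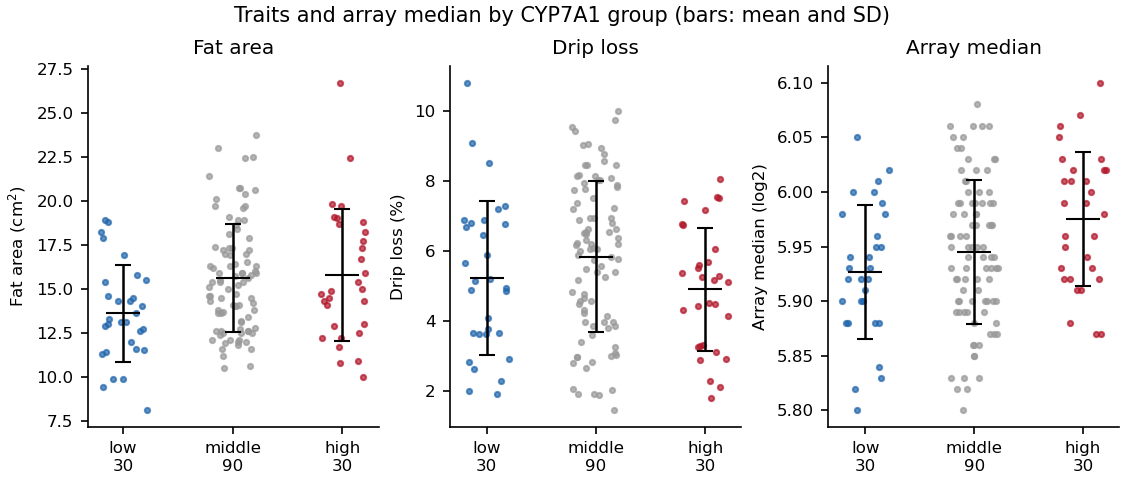
Back fat area in cm2, drip loss in percent and array median on the log2 scale (vertical axes) for the 30 low, 90 middle and 30 high CYP7A1 livers, with 1 point per pig and horizontal bars for the mean and SD. Mean fat area was 13.6 cm2 in the low and 15.8 cm2 in the high group, and the array median was 5.93 and 5.98.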

How the data were processed

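Each of 150 pig livers was measured on its own Affymetrix Porcine Genome Array. The deposited values are log2 signals, 1 per probe set, a scale inferred from their range. Of the authors' processing, only GCOS 1.1.1 is named by the submitters' processing notes, and how signals were summarised and normalized is not given in the sources used here. Values bottom out at 4.09 (2.75% of them), so differences of weak transcripts are understated. Precision is limited by the number of arrays, of which the closest pair correlated at 0.989.

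From 24123 probe sets 124 controls and the CYP7A1 probe set were left out of the tests, leaving 23998. Gene symbols came from the array's annotation, with 10069 probe sets of 1 symbol, 198 of several and 13732 of none. Livers were ranked by CYP7A1, and the 30 highest were compared with the 30 lowest by limma 3.58.1 (lmFit, eBayes with trend, R 4.3.3), two-sided, with Benjamini-Hochberg adjustment over all 23998. The fit was tested on simulated data. Traits and array measures had permutation tests of 100000 resamples.

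The members and gene lists were chosen with earlier results of these data known. Named were the 12 widest called differences in each direction, up to 4 called members of each list, all measured genes of bile acid synthesis, cholesterol synthesis and the clock, up to 4 members of the lists of regulators, transporters and cholesterol handling, and the 5 highest and 5 lowest correlations in the middle livers. Other genes were named after their values were seen. An array stood apart when its median correlation with the others lay over 3 median absolute deviations below the median of all arrays. Results were recomputed after quantile normalization, without dim or flat probe sets, with other eBayes settings, group sizes and covariates, as a slope over all livers, with blocks of 100 title numbers and with stricter calls.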

Additional observations from a re-analysis of the deposited data

How the results depend on the processing

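Against 11.4% of probe sets higher and 5.09% lower, the array median as a covariate left 2.48% and 2.22%, an adjusted p under 0.01 left 5.35% and 2.12%, and an added minimum difference of 0.5 left 1.60% and 0.546%. Lower calls came to 8.28% after quantile normalization, 8.72% for a slope over all 150 livers and 3.31% with blocks of title numbers. The steps of the 3-group fit, added after the data had been seen, gave 1.03% higher and 0.454% lower (middle to high) and 1.15% and 0.717% (low to middle). The stricter calls and the steps ask for more or compare smaller contrasts; for the other settings the cause was not tested. In the middle livers, where 0 positive and 8 negative slopes were called, quantile normalization gave 2 positive, probe sets with a mean above 6 gave 4 positive and 18 negative, and 0 negative were called without the 13 arrays that stood apart, with title blocks or with the 3 prime minus 5 prime differences as covariates. No probe set called in the comparison was called in the opposite direction by any refit that kept a high minus low difference or a slope over all livers. Among the differences checked for the named genes, 37 lost the call with the array median as a covariate, 26 with DBP as a covariate, 17 with title blocks and 12 without the arrays standing apart. The fat area difference was 2.54 cm2 with 20 livers a group and 2.00 cm2 with 40. With 1 probe set for CYP7A1, ranking by each probe set alone was not run. No paired analysis was run, since each pig gave 1 array and the labels name no pairs of livers.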
